A study of Mus musculus with 10 samples.

Results

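Immediate early and stress response genes were followed as a list of 36 named genes in bulk RNA-seq libraries of LT-HSCs, the hematopoietic stem cells with long-term activity. The genes were chosen by name, as members of 9 families, with earlier results of these data known. All 36 were among the 17404 genes of the count table. All 36 also reached a total of 11 counts over the 10 libraries and were tested with the 16725 genes that passed this filter. The LT-HSCs were sorted as CD150+ cells from mouse fetal livers at stage E14.5. The 6 KO libraries came from Tnfrsf11aCre; Spi1f/f embryos, in which Cre is expressed from Tnfrsf11a and can delete floxed Spi1, the gene of the transcription factor PU.1. The 4 WT libraries came from Tnfrsf11a+/+; Spi1f/f littermates, which share the floxed alleles and lack Cre. Both groups were on a C57BL/6 background, and the livers were digested with enzymes before sorting. The model is meant to delete Spi1 in macrophages and their precursors, and so to deplete macrophages from the fetal liver, rather than to delete it in LT-HSCs. Each library is named by its replicate number. The study compared the groups to ask how LT-HSCs change when macrophages are missing.

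Immediate early genes are transcribed within minutes of a signal, without the synthesis of new protein. Growth factors, cytokines and stress reach them through RAS-ERK, p38 and JNK kinases, which act on factors already bound to DNA, such as SRF with its ternary complex partners and CREB. Many of the products are transcription factors of the AP-1, EGR and NR4A families, and others shut the response down again by removing phosphate from the kinases (DUSP), by destroying short-lived mRNAs (ZFP36, BTG) or by acting on translation (PPP1R15A). In blood stem cells several of them, among them Nr4a1, Egr1 and Junb, are known as restraints on proliferation. They are also known to respond to the handling and dissociation of tissue.

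Depth ran from 5315435 to 30941726 gene counts among KO and from 7633446 to 18256010 among WT libraries. Spi1 reached 9.10 to 101 CPM (gene counts scaled to the library total, after TMM normalization) in KO and 6.22 to 50.1 CPM in WT (log2 fold change 1.31, standard error, SE, 0.69, adjusted p = 0.337 from edgeR), so that its RNA did not mark the genotype. Of 12 LT-HSC markers, all were detected, and their summed level was 783 to 2011 CPM in KO and 580 to 853 CPM in WT libraries. Of the 12, 4 were higher in KO and 0 lower at an adjusted p below 0.1 from edgeR. The shares of all genes tested were 1.32% and 2.67%. The 4 were Cd34, Hoxa9, Mecom and Hlf, with log2 fold changes of 0.93, 2.09, 1.83 and 1.84. Slamf1, which encodes CD150, did not pass (0.62, SE 0.53, adjusted p = 0.576 from edgeR). Ly6a was the only 1 of the 12 below 0, at -0.88 (SE 0.76, adjusted p = 0.577 from edgeR). Libraries also carried RNA of other cells in unequal amounts. Globin genes took 0.296% to 12.4% of counts in KO and 0.124% to 23.5% in WT libraries. The sum of 12 endothelial markers was 2001 to 9086 CPM in KO and 632 to 6047 CPM in WT libraries. In every library it was above the sum of the LT-HSC markers. In bulk RNA, more cells of a kind and more RNA per cell cannot be told apart.

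Of the 36 genes, 6 were higher in KO than in WT at an adjusted p below 0.1, and 0 were lower, by the quasi-likelihood test of edgeR with adjustment by Benjamini-Hochberg over all genes tested. The 6 genes were Nr4a1, Fosl2, Fosb, Sik1, Jun and Dusp2, which is 16.7% of the list. Among all genes tested, 1.32% were higher and 2.67% lower at this threshold. At an unadjusted p below 0.05, 15 of the 36 genes were higher (41.7%, against 8.60% of all genes) and 0 were lower (against 10.2%). The median log2 fold change of the list was 0.95, and that of all genes was 0.06. The log2 fold change was above 0 for 29 of the 36 genes and above 1 for 17, where 53.1% and 16.2% of all genes lay above those values. Every KO library lay above every WT library for Fosl2 and Dusp2, 5.56% of the list, against 2.88% of all genes. The reverse held for 0 of the 36 genes and 3.48% of all genes. With DESeq2, the tool of the study, and a log2 fold-change threshold of 0.1, 12 of the 36 genes were higher (33.3%, against 3.50% of all genes) and 0 lower (against 3.29%). The adjusted p-values of the 6 genes lay between 0.0824 and 0.0974, close under the threshold, and none remained when the transcript length trend was removed, when Xist was a covariate, or when KO replicate 15405, 15406, 15411, 15412 or 15415 or WT replicate 15416 was left out. In these fits 0 of all genes tested passed in either direction, except 1 higher without KO replicate 15411. Over the same fits the log2 fold change of Nr4a1 was 2.31 to 3.41 (3.24 with all libraries), and that of Dusp2 was 1.28 to 1.64 (1.46 with all libraries).

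**Figure D1:**
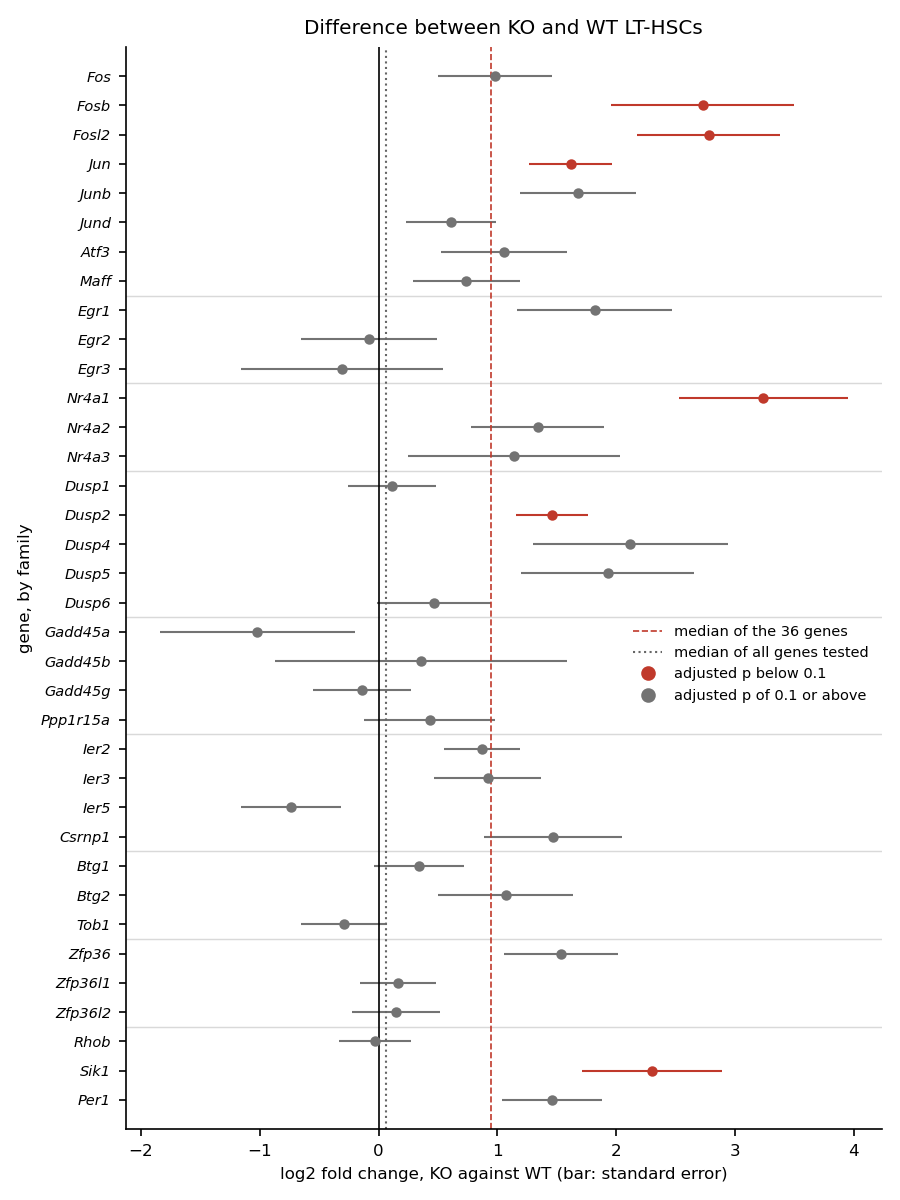
Log2 fold change of each of the 36 genes, KO against WT, from edgeR, with its SE as a bar; red points have an adjusted p below 0.1. The dashed line is the median of the 36 genes (0.95) and the dotted line that of all genes tested (0.06), and 7 points lie left of 0.

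The level of the early genes differed among the KO libraries. For each gene, the log2 of CPM plus 1 was set against its mean over the 10 libraries, and the median of these differences over the 36 genes was taken in each library. It was 1.10, 1.03 and 0.70 in KO replicates 15411, 15412 and 15415, and -0.24, 0.10 and -0.52 in KO replicates 15405, 15406 and 15409. The values of WT replicates 15416, 15417, 15418 and 15420 were -1.18, -0.10, -0.29 and -0.41. Thus 3 KO libraries lay within the WT range or just above it, and 1 WT library lay far below the others. KO replicate 15411 held the highest value of 17 of the 36 genes (47.2%, against 8.83% of all genes tested), and WT replicate 15416 the lowest value of 22 (61.1%, against 19.7%).

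**Figure D2:**
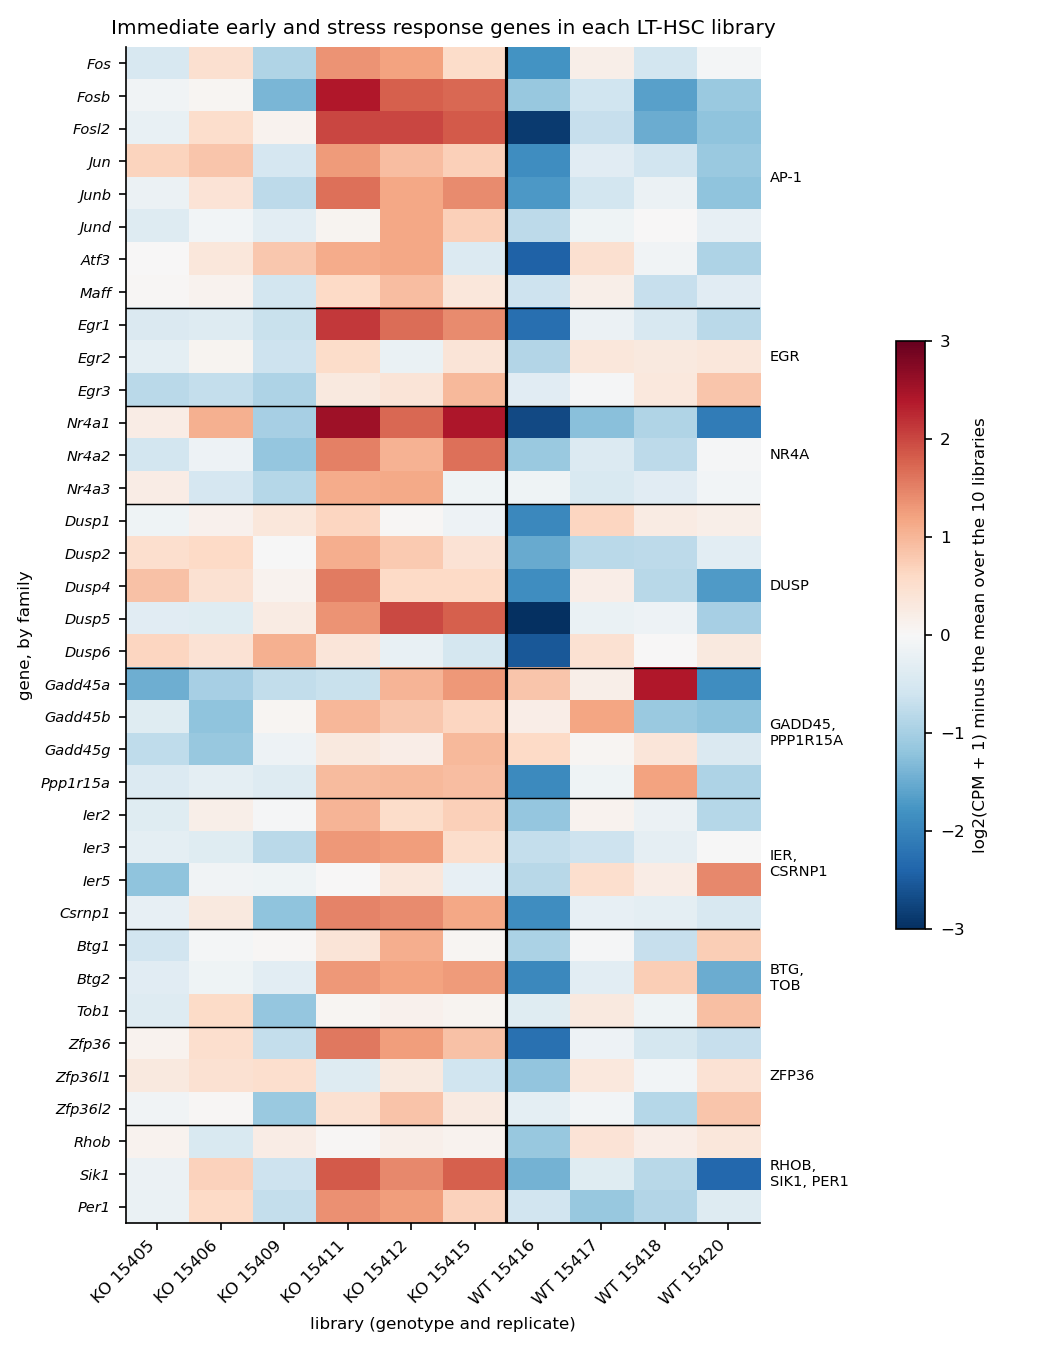
Each row is 1 of the 36 genes, grouped by family, and each column 1 library; color gives log2(CPM + 1) minus the mean of the gene over the 10 libraries. KO replicates 15411, 15412 and 15415 are all red for most AP-1 genes, Egr1, Nr4a1 and Nr4a2, and WT replicate 15416 is blue over most rows.

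Markers of other cells differed between the same libraries. The summed CPM of 8 megakaryocyte markers, such as Pf4 and Itga2b, was 3024, 2808 and 4087 in KO replicates 15411, 15412 and 15415, against 259 to 454 in the other KO and 276 to 1426 in the WT libraries. These 3 libraries were also the 3 highest for 17 of the 36 early genes (47.2%), a pattern that 2.83% of all genes tested share. The LT-HSC marker Slamf1 shared it, at 43.8, 63.6 and 76.9 CPM there and 9.86 to 33.4 CPM in the other libraries. The LT-HSC marker sum did not share it. It was 2011, 1349 and 1579 CPM there, against 1205, 1619 and 783 CPM in KO replicates 15405, 15406 and 15409. Of the 6 KO sums, 5 were above the highest WT sum of 853 CPM, all except that of KO replicate 15409. No fit used the LT-HSC marker sum as a covariate, and its part in the differences was not tested. None of the 8 megakaryocyte markers passed the threshold between KO and WT, and none was at 0 throughout either group. With the log2 of the megakaryocyte sum as a covariate, chosen after seeing the data, Fosl2 alone of the 36 genes passed (log2 fold change 2.36, SE 0.29, adjusted p = 0.0702 from edgeR) and the median of the list was 0.60. In that fit 16 of the 36 genes had an unadjusted p below 0.05, all higher. At this p 1231 of all genes tested were higher and 1629 lower, and after adjustment 2 were higher and 0 lower. The log2 fold changes of the others were 2.55 for Nr4a1 (SE 0.41), 1.49 for Jun (0.30), 1.38 for Dusp2 (0.26), 1.74 for Sik1 (0.45) and 1.72 for Fosb (0.52), with unadjusted p-values of 4.97e-05, 0.000399, 0.000238, 0.00224 and 0.00666 from edgeR. The 12 endothelial markers summed to 632 CPM in WT replicate 15416 and to 2001 to 9086 CPM in the other libraries. With that sum as a covariate, also chosen after seeing the data, 7 of the 36 genes were higher, against 1.79% of all genes tested. The 15 macrophage markers summed to 461 to 980 CPM in KO and 143 to 927 CPM in WT libraries, and Mrc1, Lyz2 and Vcam1 made up most of these sums. Mrc1 was highest in KO replicate 15409 (714 CPM) and lowest in WT replicate 15416 (3.11 CPM). The endothelial sum was also highest and lowest in these libraries, and which cells the Mrc1 RNA came from was not tested. The log2 fold change was below 0 for 11 of the 15 markers, with a median of -0.79, and was -2.08 for Adgre1, -2.04 for C1qa and -1.15 for Csf1r (adjusted p = 0.507, 0.337 and 0.281 from edgeR). Marco, at 0 in every KO library, was the only one of the list past the threshold, as lower. Granulocyte markers (12.6 to 1322 CPM in KO, 6.07 to 2163 CPM in WT, with Ly6g at 0 in every WT library) and hepatoblast markers (98.2 to 9105 and 271 to 6225 CPM) varied widely within both groups, with 0 of 10 genes past the threshold in either list.

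**Figure D3:**
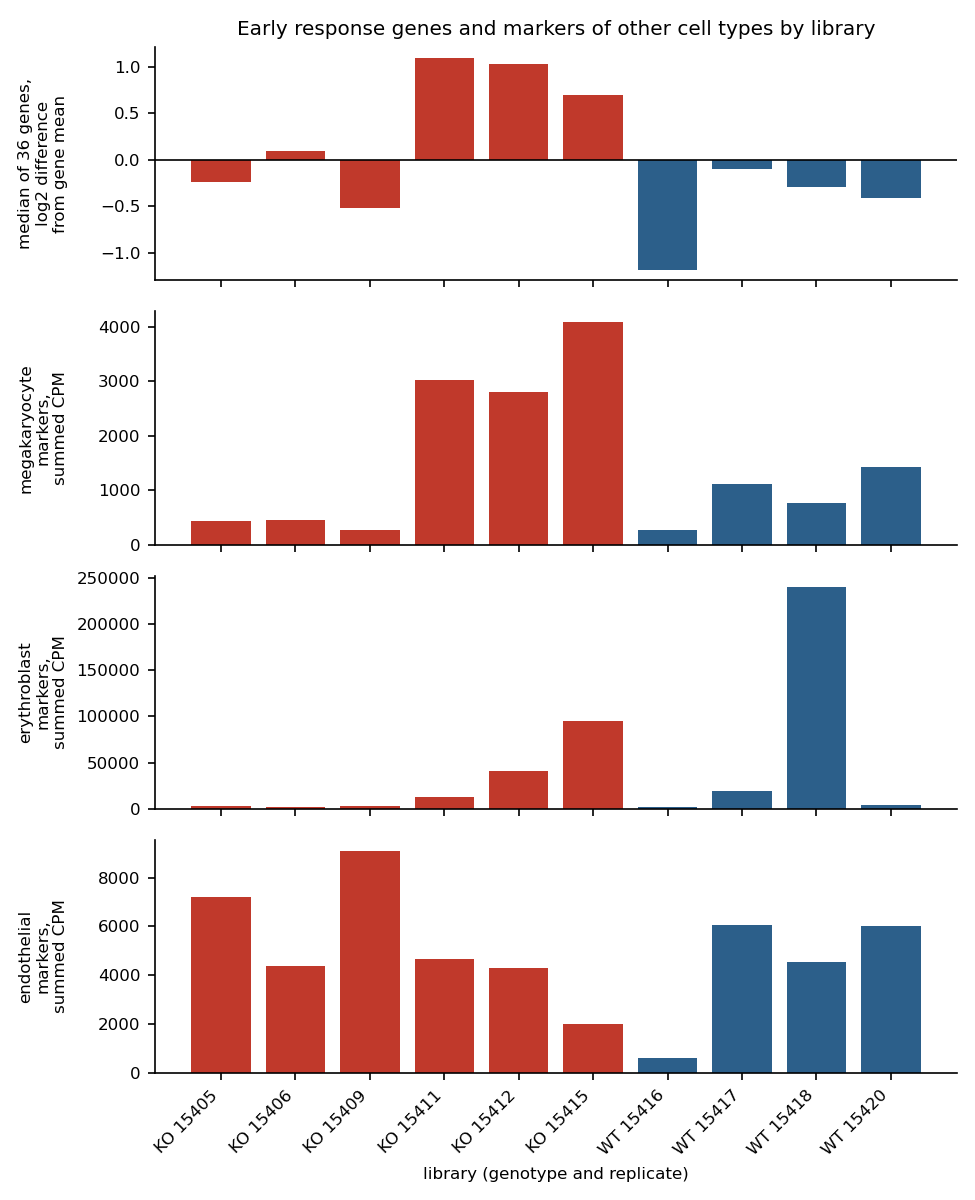
Top, median over the 36 genes of the log2 difference from the gene's mean, in each library (KO red, WT blue); below, summed CPM of 8 megakaryocyte, 10 erythroblast and 12 endothelial markers. KO replicates 15411, 15412 and 15415 stand highest in the first and second panels, WT replicate 15418 in the third, and WT replicate 15416 is lowest in the first and last.

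Erythroid RNA was highest among KO in the same 3 libraries, but did not follow this order over all 10 libraries. Globin took 1.99%, 6% and 12.4% of counts in KO replicates 15411, 15412 and 15415 and 0.296% to 0.383% in the other KO libraries. In WT replicates 15416, 15417, 15418 and 15420 it took 0.124%, 2.44%, 23.5% and 0.428%. Granulocyte marker sums split the KO libraries in the same way, at 212, 1322 and 409 CPM against 12.6 to 108 CPM. Among the 5 libraries with globin at 1% of counts or above (KO replicates 15411, 15412 and 15415, WT replicates 15417 and 15418), 14 of the 36 genes were higher in KO, against 1.48% of all genes tested. Among the other 5 libraries, 0 of the 36 and 0 of all 15241 genes tested passed after adjustment. At an unadjusted p below 0.05, 10 of the 36 and 1152 of all genes were higher there. The median log2 fold change was 0.98 in the first set and 0.64 in the second. In the second set, Nr4a1 had a log2 fold change of 2.83 (SE 0.69), Fosl2 of 2.12 (0.66) and Jun of 1.93 (0.51), each with an adjusted p of 0.243 or above from edgeR. With the globin level as a covariate in all 10 libraries, 12 of the 36 genes were higher, against 1.55% of all genes tested. These splits and covariates were chosen after seeing the data, and the part of the other cells' RNA in the differences was not tested beyond these fits.

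Promoter stretches with early response motifs are shown for some of the 36 genes, with the motifs known from textbook early genes, so that the letters can be read beside the expression values. RefSeq's promoter table (build GRCm38.p6, a stretch around each transcription start) holds 30 of the 36 genes and 27025 genes in all. Both strands were searched for the EGR site, GCGGGGGCG or GCGTGGGCG, for the cAMP response element TGACGTCA, for the AP-1 site TGAGTCA and for the CArG box, to which SRF binds. The EGR site was found in 6 of the 30 genes, Dusp2, Fosb, Fosl2, Maff, Nr4a1 and Zfp36, and in 3.93% of all genes of the table. Of the 6 genes past the threshold, 5 have an entry, and 4 of these hold the site. Member promoters had a median GC content of 62.8%, against 52.7% for all promoters of the table, and the EGR site is made almost wholly of G and C. The cAMP response element was found in Btg2, Dusp1, Maff and Ppp1r15a (2.03% of all genes), the CArG box in Dusp5, Egr2 and Zfp36 (1.81%), and the AP-1 site in Csrnp1 (5.95%). Jun has an entry with none of the motifs, and Sik1 is not in the table. The stretches of Fosl2 and Zfp36 lie before a RefSeq start but overlap an exon of the same gene in Gencode, and that of Dusp5 overlaps an exon of its antisense gene. In the following stretches, printed on the strand of the gene from 5′ to 3′, capitals mark the motif.
Dusp2, EGR site, chr2:127336036-127336094, + strand: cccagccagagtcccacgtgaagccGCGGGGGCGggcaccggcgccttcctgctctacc
Fosb, EGR site, chr7:19310062-19310120, - strand: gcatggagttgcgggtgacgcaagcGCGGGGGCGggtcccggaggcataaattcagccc
Fosl2, EGR site, chr5:32136383-32136411, + strand: ccggctgcgcGCGGGGGCGgaagggcgcg
Nr4a1, EGR site read on the other strand, chr15:101266761-101266819, + strand: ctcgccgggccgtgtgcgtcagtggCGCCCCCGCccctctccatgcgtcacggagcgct
Zfp36, EGR site, chr7:28379315-28379343, - strand: gagctacgccGCGGGGGCGcgtcccggaa
Zfp36, CArG box, chr7:28379267-28379296, - strand: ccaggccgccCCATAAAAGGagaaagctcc
Dusp5, adjacent CArG boxes, chr19:53529058-53529087, + strand: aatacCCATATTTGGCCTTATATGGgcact
Btg2, cAMP response element, chr1:134079289-134079346, - strand: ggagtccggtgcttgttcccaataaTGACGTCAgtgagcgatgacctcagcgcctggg
Dusp1, cAMP response element, chr17:26508583-26508640, - strand: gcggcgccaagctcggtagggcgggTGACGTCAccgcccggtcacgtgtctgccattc
The same 9-base word, GCGGGGGCG, is thus held by Dusp2, Fosb, Fosl2 and Zfp36, and by Nr4a1 on the other strand. A match describes these letters and is no sign that a factor binds there.

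The AP-1 family, the FOS and JUN proteins that bind DNA as dimers together with their relatives ATF3 and MAFF, held 3 of the 6 genes past the threshold. Fosl2, which encodes the FOS protein FRA2, is found on chromosome 5 (GRCm38) from 32135801 to 32157842. Its lowest, median and highest KO levels were 31.0, 92.7 and 150 CPM. In WT replicates 15416, 15417, 15418 and 15420 it stood at 4.10, 22.3, 12.3 and 15.3 CPM. All 6 KO libraries thus lay above the highest WT library, and the log2 fold change was 2.78 (SE 0.60, adjusted p = 0.0824), a 6.86-fold difference. The Fosb gene, of another FOS protein, lies on chromosome 7 from 19302696 to 19310051 and was expressed at a low level. Its KO libraries had 2.00, 15.8 and 40.0 CPM (lowest, median, highest), and the WT libraries had 2.50, 4.08, 1.48 and 2.55 CPM in the same order as before. All KO libraries except replicate 15409 were above the WT libraries, with a log2 fold change of 2.73 (SE 0.77, adjusted p = 0.0974). Without globin-rich libraries its log2 fold change was 1.05 (SE 0.91).

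Jun, the main JUN partner of the FOS proteins, lies on chromosome 4 from 95049034 to 95052222 and shares 7.28% of its exonic bases with its antisense gene Junos, which these unstranded libraries cannot separate. Its KO levels ran from 84.6 to 289 CPM with a median of 204, and its WT levels were 32.3, 93.7, 79.3 and 54.8 CPM. Only KO replicate 15409 was inside the WT range. The log2 fold change was 1.62 (SE 0.35, adjusted p = 0.0824), and it was 1.32 to 1.93 over the alternatives. Junb, an AP-1 protein known to limit stem cell proliferation, had 38.3, 119 and 212 CPM as its lowest, median and highest KO level. The WT libraries had 19.3, 45.1, 58.3 and 28.3 CPM, so that 5 of 6 KO libraries were above them, but the adjusted p of its log2 fold change of 1.68 (SE 0.49) was 0.109. It shares 7.52% of its exonic bases with Prdx2 on the other strand.

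Fos, with the highest mean of the family in TPM (a level that takes transcript length into account) at 127 TPM, showed the groups overlapping. Its KO levels were 115, 308 and 548 CPM (lowest, median, highest) and its WT levels 61.0, 241, 147 and 206 CPM. The log2 fold change was 0.98 (SE 0.48, adjusted p = 0.295), and 4 of 6 KO libraries were above the WT libraries. Fos and Fosb, which respond to the same signals, thus had log2 fold changes of 0.98 and 2.73. For the other AP-1 genes the log2 fold change was 1.06 for Atf3, 0.74 for Maff and 0.61 for Jund, with adjusted p-values of 0.305, 0.400 and 0.415. Atf3 ranged from 15.6 to 48.5 CPM in KO and from 3.11 to 29.9 CPM in WT libraries, and Maff from 3.90 to 12.7 and from 3.48 to 7.19 CPM. Jund, at 10.8 to 33.2 CPM in KO and 7.89 to 14.4 CPM in WT libraries, shares 52.6% of its exonic bases with the antisense gene Gm11175 and is uncertain. Summed over the 8 genes, AP-1 reached 332 to 1311 CPM in KO and 134 to 457 CPM in WT libraries, with 5 of 6 KO sums above the highest WT sum.

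**Figure D4:**
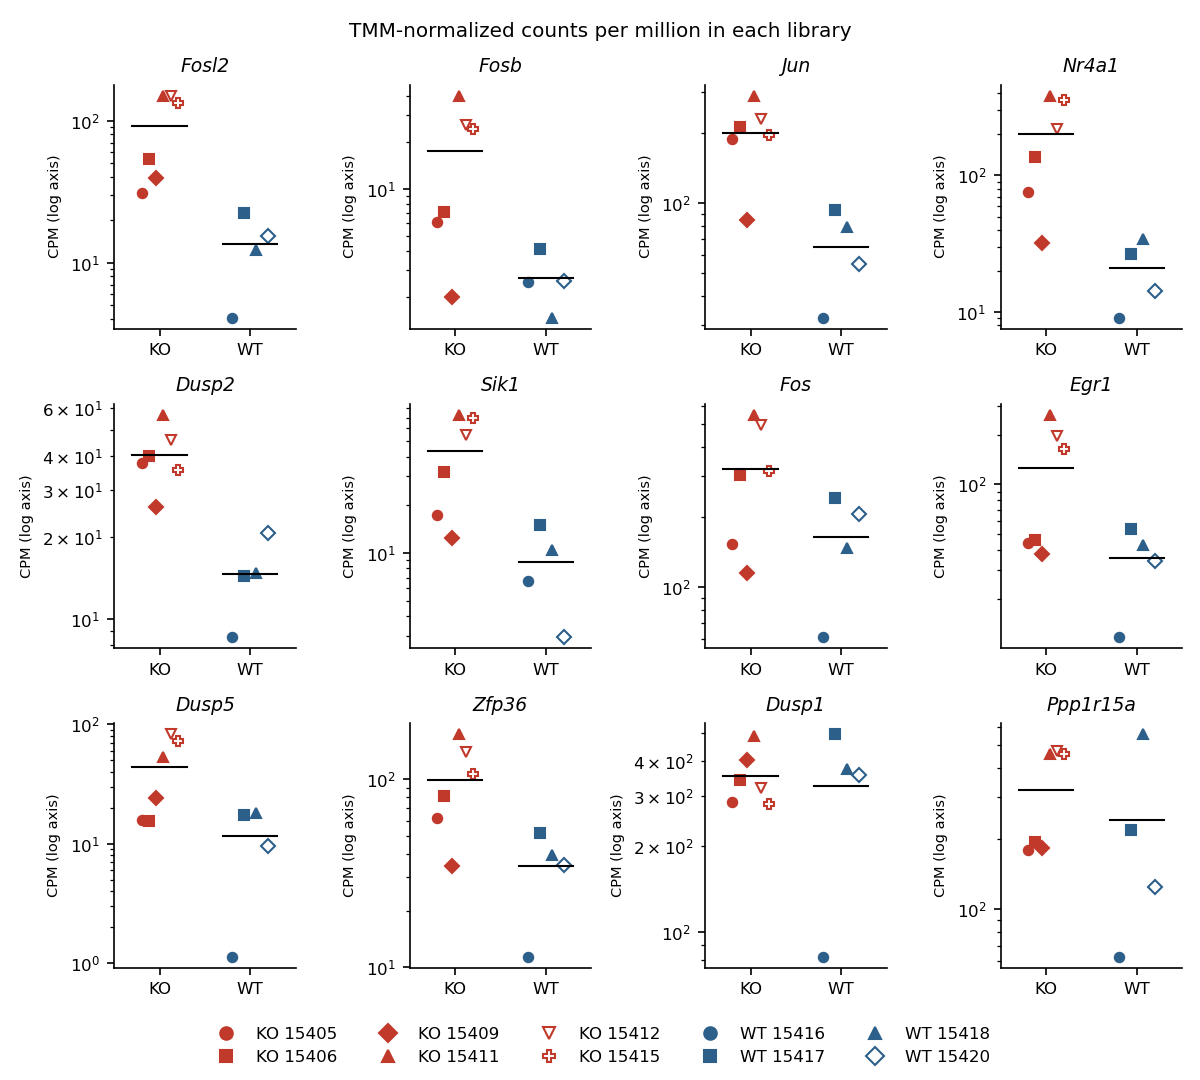
CPM of 12 genes in each library on a log axis, with a symbol for each library and a black line at the mean of the group. The groups do not overlap for Fosl2 and Dusp2; for Egr1, KO replicates 15411, 15412 and 15415 stand apart from all other libraries, and for Dusp1 the groups overlap except for the low value of WT replicate 15416.

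The NR4A genes encode orphan nuclear receptors that act without a known ligand. Nr4a1 (Nur77), on chromosome 15 from 101254269 to 101274795, had the largest log2 fold change of the 36 genes. Its lowest, median and highest KO levels were 31.9, 177 and 383 CPM. The WT libraries stood at 9.10, 26.6, 34.3 and 14.3 CPM. KO replicate 15409 was the only KO library inside the WT range, and the log2 fold change was 3.24 (SE 0.71, adjusted p = 0.0824), a 9.45-fold difference. Nr4a1 passed the threshold in 16 of the 28 alternatives, with log2 fold changes of 2.31 to 3.62. Nr4a2 had KO levels of 7.85, 28.6 and 61.9 CPM and WT levels of 8.27, 14.0, 10.6 and 18.5 CPM. Its KO libraries lay on both sides of the WT libraries, 3 of them above and 1 below, with a log2 fold change of 1.34 (SE 0.56, adjusted p = 0.221). Nr4a3, at 0.162 to 3.59 CPM in KO and 0.532 to 0.991 CPM in WT libraries, was near the detection limit and had a log2 fold change of 1.14 (SE 0.89).

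The EGR genes encode zinc finger factors that bind the EGR site. Egr1 had 37.8, 105 and 264 CPM as its lowest, median and highest KO level and 11.8, 53.3, 42.9 and 34.1 CPM in the WT libraries. The levels lay in separate ranges, with WT replicate 15416 at 11.8 CPM, 6 libraries of both genotypes at 34.1 to 53.3 CPM, and KO replicates 15411, 15412 and 15415 at 264, 196 and 164 CPM. The log2 fold change was 1.82 (SE 0.65, adjusted p = 0.168). Egr2 and Egr3 were far lower and did not follow Egr1. Egr2 lay between 1.57 and 4.78 CPM in KO and between 1.14 and 3.99 CPM in WT libraries (log2 fold change -0.08, SE 0.57), and Egr3 between 0.271 and 3.75 and between 0.910 and 3.26 CPM (-0.31, 0.85). The sign of both changed under some alternatives, 4 of 28 for Egr2 and 2 for Egr3.

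The DUSP genes encode phosphatases that switch off MAP kinases, and they split by member. Dusp2 (PAC1), a nuclear phosphatase on chromosome 2 from 127336159 to 127338376, had the smallest p of the 36 genes. Its KO levels were 25.9, 38.9 and 56.6 CPM (lowest, median, highest) and its WT levels 8.57, 14.4, 14.8 and 20.8 CPM. The groups did not overlap, and the log2 fold change of 1.46 (SE 0.30, adjusted p = 0.0824) moved only between 1.27 and 1.68 over the alternatives. Its highest level was that of KO replicate 15411 and its lowest KO level that of KO replicate 15409. Dusp1, the classic phosphatase of the stress kinases, was the most abundant of the 36 genes per length, at a mean of 195 TPM, and it gave the opposite picture. Its KO libraries had 281, 332 and 488 CPM, and the WT libraries had 82.1, 495, 375 and 356 CPM. All WT libraries except replicate 15416 thus lay inside or above the KO range, with a log2 fold change of 0.11 (SE 0.37, adjusted p = 0.905).

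Dusp4 and Dusp5, nuclear MAP kinase phosphatases, had large log2 fold changes that did not pass. Dusp4, with 3.47, 5.32 and 11.3 CPM in KO and 0.152, 3.82, 1.33 and 0.283 CPM in WT libraries, had a log2 fold change of 2.12 (SE 0.82, adjusted p = 0.194). The lowest of these values rests on 2 counts. For Dusp5 the KO levels were 15.5, 38.8 and 82.3 CPM and the WT levels 1.14, 17.4, 18.0 and 9.62 CPM. Its log2 fold change was 1.93 (SE 0.73, adjusted p = 0.188), 4 of 6 KO libraries were above the WT libraries, and 22.1% of its exonic bases are shared with an antisense gene. Dusp6, the cytoplasmic ERK phosphatase, lay between 54.5 and 168 CPM in KO and between 12.9 and 110 CPM in WT libraries (log2 fold change 0.47, SE 0.48, adjusted p = 0.645). It was highest in KO replicate 15409, the KO library in which Dusp2 was lowest. As a sum over the family, 1 of 6 KO libraries was above the highest WT library, so that the DUSP total did not follow Dusp2.

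The GADD45 genes, whose products sense DNA damage and stress, and Ppp1r15a (GADD34), which restores translation after stress by bringing a phosphatase to eIF2α, had 0 of 4 genes past the threshold. Ppp1r15a had 178, 325 and 471 CPM as its lowest, median and highest KO level and 62.9, 217, 556 and 125 CPM in the WT libraries. Its highest level was that of WT replicate 15418, the library richest in globin, and its log2 fold change was 0.43 (SE 0.55, adjusted p = 0.729). Gadd45a had the lowest log2 fold change of the list, -1.02 (SE 0.82, adjusted p = 0.547), with 2.19 to 21.0 CPM in KO and 1.42 to 45.7 CPM in WT libraries. It too was highest in WT replicate 15418, and it shares 19.1% of its exonic bases with E230016M11Rik. Gadd45g lay at 7.74 to 36.8 CPM in KO and 13.3 to 28.2 CPM in WT libraries (log2 fold change -0.14, SE 0.41). Gadd45b had 0 counts in KO replicate 15406 and WT replicate 15420, which allows up to 0.474 and 0.425 CPM at 3 counts, and at most 4.26 CPM elsewhere, so that its log2 fold change of 0.36 carries an SE of 1.23.

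Ier2, Ier3 and Ier5 are early genes whose products act in growth control, and Csrnp1 encodes a nuclear protein induced by the AXIN1 tumor suppressor. Ier2, the most abundant of them at a mean of 105 TPM, had KO levels of 109, 183 and 286 CPM and WT levels of 61.5, 151, 123 and 76.3 CPM. Of its KO libraries, 4 of 6 were above the WT range, and the log2 fold change was 0.87 (SE 0.32, adjusted p = 0.172). Csrnp1 had 5.25, 23.9 and 39.7 CPM in KO and 2.96, 11.1, 10.7 and 9.34 CPM in WT libraries. All KO libraries except replicate 15409 exceeded the WT libraries (log2 fold change 1.47, SE 0.58, adjusted p = 0.196). Ier3, with a log2 fold change of 0.92 (SE 0.45, adjusted p = 0.289), lay at 12.1 to 55.4 CPM in KO and 12.9 to 21.7 CPM in WT libraries. Ier5, which is a target of heat shock factor, lay on the other side of 0, at -0.74 (SE 0.42, adjusted p = 0.371), with 6.95 to 22.1 CPM in KO and 9.33 to 48.7 CPM in WT libraries, and it was below 0 in every alternative.

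BTG1, BTG2 and TOB1 are antiproliferative proteins that recruit the CCR4-NOT deadenylase to mRNA. Btg2 had the highest mean of them per length, 32.2 TPM, with 55.1, 113 and 174 CPM in KO and 17.5, 56.2, 118 and 24.5 CPM in WT libraries. The groups overlapped, since WT replicate 15418 exceeded the 3 KO libraries poor in globin, and the log2 fold change was 1.07 (SE 0.57, adjusted p = 0.342). Btg1 lay at 36.6 to 119 CPM in KO and 28.1 to 92.7 CPM in WT libraries (log2 fold change 0.34, SE 0.38). For Tob1, with 9.75 to 35.2 CPM in KO and 17.7 to 44.0 CPM in WT libraries, it was -0.29 (SE 0.36).

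The ZFP36 proteins bind AU-rich elements and destroy the mRNAs of cytokines and of early genes themselves. Zfp36 (tristetraprolin) had 34.6, 94.4 and 173 CPM as its lowest, median and highest KO level and 11.4, 51.6, 39.3 and 35.0 CPM in the WT libraries. In 5 of 6 KO libraries it was above the WT libraries, with a log2 fold change of 1.54 (SE 0.48, adjusted p = 0.120), and it passed in 5 of the 28 alternatives. Zfp36l1, the member with the highest mean per length at 47.0 TPM, had KO levels of 74.0, 138 and 160 CPM and WT levels of 48.8, 140, 106 and 154 CPM. Its groups overlapped (log2 fold change 0.16, SE 0.32, adjusted p = 0.832), and 55.9% of its exonic bases are shared with the antisense gene Gm26669. Zfp36l2, at 44.2 to 175 CPM in KO and 52.9 to 172 CPM in WT libraries, had a log2 fold change of 0.15 (SE 0.37). The 2 paralogs known for roles in the hematopoietic system, Zfp36l1 and Zfp36l2, thus lay near 0, while Zfp36, the induced member, lay at 1.54.

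Sik1, Per1 and Rhob complete the list. Sik1, a kinase that is induced by cAMP and restrains CREB by holding its coactivators (CRTC) in the cytoplasm, lies on chromosome 17 from 31844250 to 31855804. Its lowest, median and highest KO levels were 12.4, 43.3 and 72.7 CPM, and its WT levels were 6.67, 14.9, 10.4 and 2.97 CPM. KO replicate 15409 was below WT replicate 15417, the other KO libraries lay above all WT libraries, and the log2 fold change was 2.30 (SE 0.59, adjusted p = 0.0846). Per1, a clock gene that is also induced by CREB, had 10.9, 29.4 and 49.1 CPM in KO and 12.2, 7.81, 9.61 and 14.0 CPM in WT libraries. Again all KO libraries except replicate 15409 exceeded the WT libraries, but the adjusted p of its log2 fold change of 1.46 (SE 0.42) was 0.105. Rhob, a small GTPase induced by stress and the most abundant of these genes per length at 12.0 TPM, had 19.6, 29.5 and 32.0 CPM in KO and 12.0, 36.6, 31.7 and 35.1 CPM in WT libraries. The resulting log2 fold change was -0.03 (SE 0.30, adjusted p = 0.971), and every WT level except that of replicate 15416 lay above the KO median.

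Family sums put these genes on 1 scale per library. The NR4A sum ran from 39.9 to 442 CPM in KO and from 18.3 to 45.5 CPM in WT libraries, and its KO mean was 6.73 times the WT mean. For EGR and AP-1 this ratio was 3.20 and 2.58, and it was 2.09 for the sum of Rhob, Sik1 and Per1. The lowest ratios were 1.26 for GADD45 with Ppp1r15a, 1.27 for DUSP and 1.36 for ZFP36. A sum follows its most abundant members, and the medians of the members ranked the families otherwise. The median log2 fold change was -0.08 for EGR, where Egr1 made up most of the sum. It was 1.46 for DUSP, where Dusp1 and Dusp6 made up most of the sum, and 1.34 for both NR4A and AP-1. In TPM every ratio was higher, from 1.59 to 9.04, and NR4A, EGR and AP-1 again came first, in this order.

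**Figure D5:**
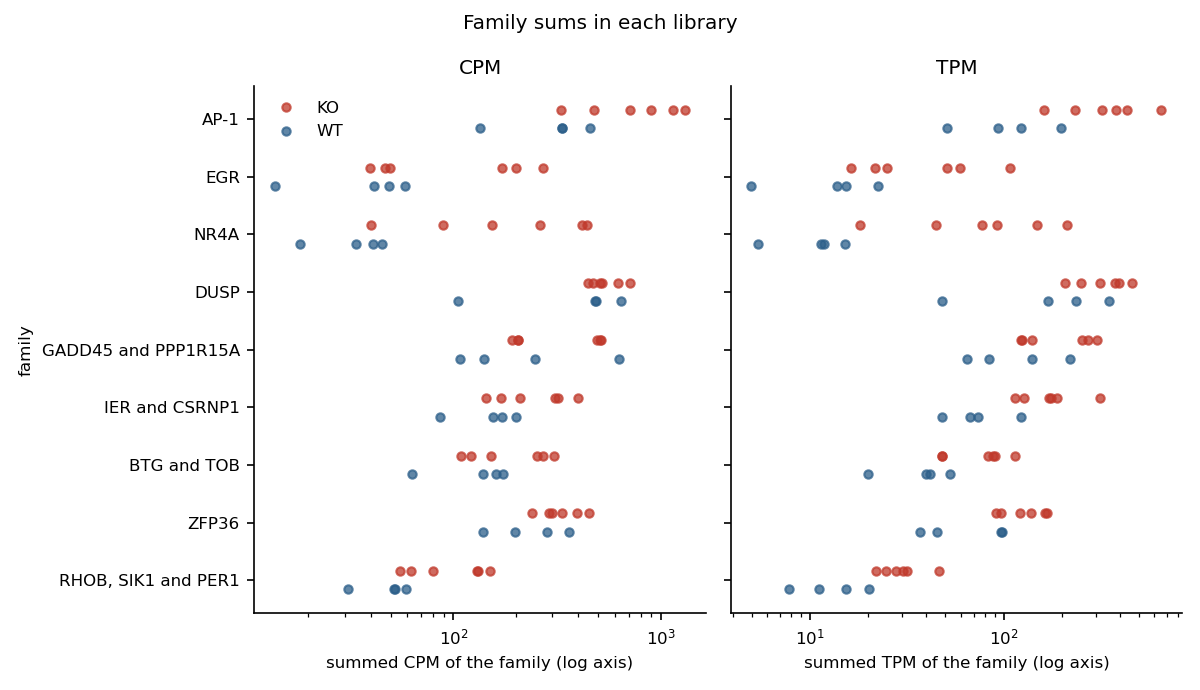
Summed level of each family in each library (KO red, WT blue), in CPM on the left and in TPM on the right, on log axes. The NR4A sums of KO libraries run from 39.9 to 442 CPM and the WT sums reach 45.5 CPM. In CPM the groups overlap in every family. In TPM all 6 KO sums lie above the WT sums for NR4A and for RHOB, SIK1 and PER1 only. The lowest WT point of every family is WT replicate 15416.

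Genes that act with the 36 were read from 7 lists of 119 genes tested in all, of which 5 were higher and 1 lower at an adjusted p below 0.1 (median log2 fold change 0.16). Among all genes tested, 1.32% were higher and 2.67% lower at this threshold, and 8.60% and 10.2% at an unadjusted p below 0.05. With DESeq2 these shares were 3.50% and 3.29%. Every KO library lay above every WT library for 2.88% of all genes, and below for 3.48%. Upstream, 2 of 25 kinases and adaptors of the RAS-ERK and stress MAPK pathways were higher and 0 lower. Braf, a kinase that activates the ERK pathway, had 25.5 to 37.1 CPM in KO and 10.2, 10.8, 17.9 and 16.3 CPM in WT libraries, without overlap (log2 fold change 1.21, SE 0.25, adjusted p = 0.0824 from edgeR). Mapk8, which encodes the JUN kinase JNK1, had 19.8 to 31.9 CPM in KO and 7.89, 12.9, 8.80 and 18.8 CPM in WT libraries, also without overlap (1.10, 0.31, adjusted p = 0.0953 from edgeR). Braf was highest in KO replicate 15409, the library with the lowest KO median of the 36 genes. Of the 14 SRF, ternary complex and CREB genes, 0 passed in either direction with edgeR, although 12 had a log2 fold change above 0 and their median was 0.61. Before adjustment, at a p under 0.05, the counts were 7 and 0, and DESeq2 called 2 higher. The smallest p-values among them were those of the CREB coactivators Crtc1 (1.23, SE 0.38, adjusted p = 0.120) and Crtc3 (0.85, SE 0.28, adjusted p = 0.137).

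Downstream, 2 of 14 other feedback inhibitors were higher and 0 lower. Nab2, which binds EGR proteins and represses their targets, had 13.0 to 21.7 CPM in KO and 5.99, 6.39, 9.02 and 4.81 CPM in WT libraries, without overlap (log2 fold change 1.30, SE 0.32, adjusted p = 0.0824). Spry1, an inhibitor of receptor tyrosine kinase signaling, had a log2 fold change of 1.93 (SE 0.54, adjusted p = 0.0977), with KO replicate 15409 at 3.47 CPM inside the WT range. Of 22 further early response genes and paralogs of the 36, Socs3 was higher, at 22.5 to 74.8 CPM in KO and 0.379, 8.78, 8.87 and 8.49 CPM in WT libraries (log2 fold change 2.48, SE 0.66, adjusted p = 0.0906), and 0 were lower. SOCS3 inhibits cytokine signaling through JAK and STAT. The median of these 22 genes was 0.06, that of all genes.

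Other AP-1 and MAF genes, 12 in number, included 0 genes past edgeR's threshold (2 higher at an unadjusted p below 0.05, 0 lower, and 1 higher with DESeq2), and their median was 0.11. Atf7 and Atf2, the factors that pair with JUN, had the smallest p-values (log2 fold changes 0.71 and 0.48, adjusted p = 0.123 and 0.215 from edgeR). In the integrated stress response, where Ppp1r15a acts, 0 of 15 genes were higher and 1 lower. The lower gene was Eif2s1, which encodes the eIF2α protein that PPP1R15A helps to dephosphorylate, at 141 to 237 CPM in KO and 525, 272, 297 and 270 CPM in WT libraries (log2 fold change -0.98, SE 0.22, adjusted p = 0.0824). Of 17 genes of CCR4-NOT and mRNA decay, 0 passed with edgeR or DESeq2, at an unadjusted p below 0.05 the counts were 4 higher and 1 lower, and the median was 0.18. Cnot6l, a deadenylase (0.80, adjusted p = 0.150), and Pan3, a subunit of another (0.43, adjusted p = 0.176), came closest by edgeR, and Pan3 did not overlap between the groups.

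The 36 genes had a median transcript length of 2294 bases and a GC content of 55.4%, against 1858 bases and 50.5% for all genes tested. When the trend of each library with transcript length was removed, the list had a median log2 fold change of 0.98, and 18 had an unadjusted p below 0.05, all of them higher. Of all genes tested in that fit, 1398 were higher and 1143 lower at this p. None of the 36 passed the adjusted threshold in that fit, and neither did any other gene. Xist, the RNA of the inactive X chromosome, stood at 1.38 to 2.40 CPM in KO replicates 15405, 15411, 15412 and 15415. It was at 361 and 346 CPM in KO replicates 15406 and 15409 and at 106 to 149 CPM in every WT library. KO replicates 15411, 15412 and 15415, all low in Xist, had the highest median differences over the 36 genes, 1.10, 1.03 and 0.70. KO replicate 15405, also low in Xist, had a median difference of -0.24, within the WT range. KO replicates 15406 and 15409, high in Xist, stood at 0.10 and -0.52. The labels used here do not give the sex of the embryos. With Xist as a covariate the median of the 36 genes was 0.39, 25 were above 0, and 6 had an unadjusted p below 0.05. At this p 852 of all genes tested were higher and 1498 lower, and 0 passed after adjustment. For Nr4a1 the log2 fold change was then 2.31 (SE 0.63, adjusted p = 0.283), for Fosl2 2.03 (0.57, 0.283) and for Fosb 1.25 (0.66, 0.418), by edgeR. Of the KO libraries, 4 lay below and the others above the WT range of Xist. No KO and WT library could thus be compared at a like Xist level, and its part and that of the genotype could not be told apart.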

How the data were processed

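RNA of sorted LT-HSCs (6 KO and 4 WT libraries) was amplified by SmartSeq2, which does not keep strand, and sequenced as single-end reads. Per the labels, bcl2fastq 2.20 and kallisto 0.44.0 were used, and per the study's methods Gencode vM16 (GRCm38). The authors deposited estimated counts per gene as whole numbers with no normalization (97.5% lie within 1 count of the sum of the transcripts), and estimated counts and TPM per transcript. Here TPM were summed by gene and used only for levels between genes. Reads carry no molecular identifiers, so limits from counts cover counting error only. The study's figure legend counts 4 WT and 6 KO embryos for this comparison, but does not state outright whether livers were pooled. The p-values measure the spread between libraries.

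Genes that reached 11 counts over all libraries were tested with edgeR 4.0.16 (glmQLFit robust, glmQLFTest, TMM) in R 4.3.3, with Benjamini-Hochberg adjustment over all genes. Unless another tool is named, adjusted p-values are from this fit. Standard errors were derived from the F statistic. DESeq2 1.42.0, the tool of the study, was an alternative, besides other normalizations, filters, offsets, covariates and each library left out. The 36 genes, their families, the pathway and marker lists and the tests were chosen with earlier results of these data known. For genes with an unadjusted p below 0.05 or no overlap between groups, and for the member of each family with the highest mean TPM, the lowest, median and highest of the 6 KO values and all 4 WT values are given. Of each pathway list, genes past the threshold are named, otherwise the 2 with the smallest p. Positions, lengths, GC content and overlaps are from Gencode vM21 (same build), and promoters from RefSeq (GRCm38.p6). Tables and figures were made with Python and pandas.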

Additional observations from a re-analysis of the deposited data

Results flagged for a closer look

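Within the KO and the WT group, the highest and lowest library of each of the 36 genes and of each family sum were compared with their neighbours by Dixon's test at its 95% limit. Of 90 groups tested, 2 passed, and chance passes about 1 in 20. Egr2 in WT replicate 15416 was at 1.14 CPM, where the nearest other WT library had 3.85 CPM. Rhob in KO replicate 15406 was at 19.6 CPM, and the nearest other KO library had 28.3 CPM. No explanation was tested for either value.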

How the results depend on the processing

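Of the 36 genes, 6 were higher in KO and 0 lower, of all genes tested 221 higher and 446 lower, and of the 119 pathway genes 5 higher and 1 lower. For members, all genes and pathway genes in that order, DESeq2 with the fold-change threshold gave 12, 585 and 9 higher, with 2 pathway genes lower, and DESeq2 without it 14, 998 and 16 higher, with 1145 genes and 3 pathway genes lower. An adjusted p below 0.05, the transcript length offset and the Xist covariate each gave 0 in every count; before adjustment, at a p under 0.05, 1438 genes were higher and 1701 lower without these changes, 1398 and 1143 with the length offset, and 852 and 1498 with the Xist covariate. With 1 library left out, the counts of members higher ran from 0 to 10, of all genes higher from 0 to 405 and lower from 0 to 598, and of pathway genes higher from 0 to 6 and lower from 0 to 3. The count of members was 0 without KO replicate 15405, 15406, 15411, 15412 or 15415 or WT replicate 15416, 3 without WT replicate 15420 and 10 without KO replicate 15409. Upper-quartile normalization and estimation without the robust option each gave 3 pathway genes higher, and filterByExpr 2 lower. Of the alternatives chosen after seeing the data, the globin covariate gave 12 members higher. The megakaryocyte covariate gave 1 member and 2 genes higher, 0 pathway genes higher, and 0 genes and 0 pathway genes lower. The endothelial covariate gave 3 pathway genes lower. Libraries with globin below 1% gave 0 in every count (before adjustment 1152 genes higher and 1287 lower at a p under 0.05), and those at 1% or above 14 members and 2 pathway genes higher and 60 genes lower. The causes of these shifts were not tested. The last fits and those with 1 library left out also rest on fewer libraries, and the part of this in the shifts was not tested either. None of the 36 genes passed as lower in any alternative, and the median log2 fold change of the list lay between 0.39 and 1.10 over the 28 alternatives. In TPM the ratio of KO to WT sums kept its direction in every family. The labels used here do not give the litter of each library, and the groups share no replicate numbers. No paired analysis was therefore possible, and differences between litters were not taken into account. Depth limits genes such as Gadd45b, Dusp4, Egr3 and Nr4a3, which had 3 or fewer counts in at least 1 library.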
